A study of Mus musculus with 4 samples.

Results

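The 42 genes described here are immediate early genes, heat shock genes and early feedback inhibitors of NF-kappaB signalling, taken by their symbols from the 32285 genes measured in 4 single-cell RNA-seq libraries of mouse liver. No expression value entered the rule that chose them, and all 42 symbols were found. They were read in cells with at least 500 unique molecular identifiers (UMIs, the count of distinct RNA molecules) over genes, at least 300 genes and at most 15% of UMIs from mitochondrial genes. The mice were C57BL/6J males, 8 weeks old at the start, that stayed on chow or received the FAT-MASH regimen for 12 or 24 weeks. Mice on that regimen ate a Western diet, drank sugar water and were given CCl4 (carbon tetrachloride, a liver toxin) into the peritoneum each week, so a difference between the diets covers all of these at once. Each pairing of diet and week was 1 library, and the labels give no number of mice per library. The same protocol is given for every group: the liver was held on ice overnight in medium with serum, digested warm with collagenase and DNase, passed over Percoll to enrich cells other than hepatocytes, and cleared of red cells.

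Immediate early genes are transcribed within minutes of a stimulus from factors already present in the cell, and their RNAs are short-lived. Fos, Jun and Egr genes encode DNA-binding factors, the Nr4a genes encode orphan nuclear receptors, and the Dusp genes encode phosphatases that switch MAP kinases off. Heat shock genes are driven by HSF1, a factor set free when unfolded proteins draw chaperones away, and they encode the HSP70, HSP90, HSP60, HSP40 and small heat shock proteins with their partners. Both kinds of gene are also known to be turned on while tissue is dissociated into single cells, and immediate early genes mark immune cell activation as well. These uses of the same genes cannot be told apart from RNA levels alone.

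After removal of likely doublets, 16808 and 15549 cells of the 12-week chow and MASH libraries and 21301 and 17757 cells of the 24-week chow and MASH libraries remained, holding 45356105, 68619667, 58426540 and 86636713 UMIs. The median cell had 2000, 3112, 2065 and 3199 UMIs, so the MASH libraries were the deeper ones at both weeks. Cell classes were rebuilt from marker genes, with the 42 genes and their companions kept out of the clustering, and each is named for the markers it resembles: B-like (3807, 3214, 7405 and 4946 cells), T-like (3878, 3268, 5045 and 3722), NK-like (natural killer cells or ILC1; 1157, 1310, 1266 and 1132), monocyte-like (monocytes or macrophages; 405, 802, 414 and 1463), neutrophil-like (154, 276, 1468 and 1514), cDC-like (conventional dendritic cells; 267, 588, 398 and 816), pDC-like (plasmacytoid dendritic cells; 408, 554, 445 and 362), endothelial-like (926, 861, 372 and 322) and hepatocyte-like (1391, 437, 1951 and 617). A basophil- or mast-like class (127, 162, 104 and 88 cells) is described by its levels only. Clusters with mixed markers were left out of the classes. Among them was the largest cluster scoring best on endothelial markers, led by Clec4g, Gpihbp1 and Stab2 (2231, 1352, 943 and 360 cells). Another scored best on Kupffer cell markers and was led by C1qc, C1qb and C1qa (112, 725, 15 and 954 cells). The endothelial-like class thus lacks the Clec4g cluster. The monocyte-like class, mostly a cluster led by F13a1, lacks the C1qc cluster. The labels call the material non-parenchymal cells, yet hepatocyte-like cells made up 8.28, 2.81, 9.16 and 3.47% of the cells. Throughout, 4 values in a row stand for chow and MASH at 12 weeks and then chow and MASH at 24 weeks.

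Both 24-week libraries stood apart from the 12-week ones and were themselves divided, which bears on the results below. Cells had been tagged with hashtag antibodies, 3 in each 12-week library (hashtags 1 to 3 in chow, 4 to 6 in MASH) and 8 in each 24-week library. What each hashtag stands for is not stated, and hashtags therefore describe spread only and are never counted as animals. In the 24-week libraries hashtags 1 to 4 and hashtags 5 to 8 differed in heat shock RNA. Hspa1a in the B-like class was at 2679.9 CPM (counts-per-million, over all UMIs of those cells) in hashtags 1 to 4 of chow and 1501 CPM in hashtags 5 to 8, and at 674 and 2490.3 CPM in those of MASH. In the chow library the sets also differed in makeup, with neutrophil-like cells at 1.73% of hashtags 1 to 4 and 13.9% of hashtags 5 to 8. Of the cell barcodes, 487 to 732 were shared between pairs of the 3 libraries whose barcode list matched the matrix. The number to be shared by random draw was not computed, so these counts do not show mixing of libraries.

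With 1 library per group there is no test and no p-value. Levels are CPM of the UMIs summed over the cells of a class, and differences are ratios of CPM with an exact 95% binomial interval in parentheses. That interval covers counting error only and says nothing of the spread between animals. A gene was counted as higher or lower in a class where its CPM differed at least 2-fold with at least 20 UMIs in the 2 libraries. The same rule over all genes gives the background. The 4 comparisons share libraries, so they are not independent of one another, and week cannot be told apart from whatever else set the 12-week and 24-week libraries apart, their hashtag layout included.

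The DNA just before the start of these genes is shown for 8 of them. Promoters came from RefSeq, build GRCm38.p6, as the 250 bases before the start, for 35 of the 42 genes. Heat shock elements, the sites HSF1 binds, are inverted GAA repeats. The pair GAANNTTC or TTCNNGAA lay in the promoters of 6 of 10 heat shock genes and in 13% of all 27025 promoters, on either strand. The triple form GAANNTTCNNGAA or TTCNNGAANNTTC holds overlapping pairs, and it lay in 0.403% of all promoters and, among these genes, in that of Hspe1. The first 4 promoters below belong to Hspa1a, Hspa1b and Hsph1, which were higher in MASH at 12 weeks in most classes, and to Hspe1 for its triple element, with the heat shock element pairs in capitals.
Hspa1a: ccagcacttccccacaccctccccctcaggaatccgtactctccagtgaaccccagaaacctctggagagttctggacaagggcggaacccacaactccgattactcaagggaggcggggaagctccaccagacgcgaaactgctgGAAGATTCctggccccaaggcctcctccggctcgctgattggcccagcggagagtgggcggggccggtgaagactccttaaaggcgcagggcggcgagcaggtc
Hspa1b: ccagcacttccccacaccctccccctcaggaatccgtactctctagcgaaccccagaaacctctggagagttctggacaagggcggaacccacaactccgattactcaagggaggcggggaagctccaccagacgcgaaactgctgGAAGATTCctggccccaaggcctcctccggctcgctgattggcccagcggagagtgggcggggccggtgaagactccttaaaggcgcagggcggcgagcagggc
Hsph1: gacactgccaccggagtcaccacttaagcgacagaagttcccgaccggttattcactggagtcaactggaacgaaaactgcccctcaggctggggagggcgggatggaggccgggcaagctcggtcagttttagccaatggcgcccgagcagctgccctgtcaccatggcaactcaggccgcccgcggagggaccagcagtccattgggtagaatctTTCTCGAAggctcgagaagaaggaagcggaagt
Hspe1: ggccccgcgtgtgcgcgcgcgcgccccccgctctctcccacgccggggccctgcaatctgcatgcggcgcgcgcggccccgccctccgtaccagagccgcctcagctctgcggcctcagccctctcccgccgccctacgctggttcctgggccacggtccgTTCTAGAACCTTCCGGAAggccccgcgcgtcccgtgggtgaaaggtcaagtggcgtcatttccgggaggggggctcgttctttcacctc
These stretches are chr17:34972157-34972406 for Hspa1a, chr17:34959239-34959488 for Hspa1b, chr5:149636337-149636586 for Hsph1, all on the minus strand, and chr1:55087898-55088147 for Hspe1 on the plus strand. The pair lay 104 bases before the start in Hspa1a and Hspa1b, whose promoters differ at 3 of 250 bases. The 2 genes are near-identical copies, so the split of reads between them is uncertain and their ratios are not independent of each other.

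The next 4 promoters belong to early response genes that were lower at 24 weeks in most classes. For the 3 Nr4a genes the capitals mark the core of the cyclic AMP element, TGACG or CGTCA, where CREB binds. This core lay in 18 of the 35 promoters, in 17.8% of all promoters, and 4 times in each Nr4a promoter. For Dusp5 the capitals mark the CArG box, the site of serum response factor, which was present at 82 and 72 bases before the start. That box lay in 2 of the 35 promoters, those of Dusp5 and Zfp36, and in 1.41% of all promoters.
Nr4a1: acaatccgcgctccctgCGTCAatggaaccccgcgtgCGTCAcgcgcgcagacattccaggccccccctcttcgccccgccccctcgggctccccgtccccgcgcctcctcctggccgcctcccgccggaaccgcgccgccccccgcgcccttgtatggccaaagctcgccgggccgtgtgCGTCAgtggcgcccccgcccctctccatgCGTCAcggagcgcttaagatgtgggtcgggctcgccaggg
Nr4a2: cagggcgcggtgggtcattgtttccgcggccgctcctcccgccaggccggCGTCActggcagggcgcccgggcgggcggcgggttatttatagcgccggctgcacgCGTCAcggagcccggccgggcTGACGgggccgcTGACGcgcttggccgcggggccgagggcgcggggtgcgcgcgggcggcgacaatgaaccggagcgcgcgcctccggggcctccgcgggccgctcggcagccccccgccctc
Nr4a3: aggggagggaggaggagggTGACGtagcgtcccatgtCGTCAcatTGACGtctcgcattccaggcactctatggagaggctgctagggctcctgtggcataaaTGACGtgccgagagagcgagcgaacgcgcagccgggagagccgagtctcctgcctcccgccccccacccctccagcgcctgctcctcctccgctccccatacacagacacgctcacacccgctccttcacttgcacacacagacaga
Dusp5: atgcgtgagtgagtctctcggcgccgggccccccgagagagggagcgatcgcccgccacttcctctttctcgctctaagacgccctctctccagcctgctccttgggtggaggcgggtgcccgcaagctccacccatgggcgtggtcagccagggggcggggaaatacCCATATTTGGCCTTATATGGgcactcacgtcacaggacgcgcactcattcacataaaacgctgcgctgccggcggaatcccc
They are chr15:101266596-101266845 (plus strand), chr2:57124004-57124253 (minus), chr4:48045055-48045304 (plus) and chr19:53528895-53529144 (plus). The EGR site GCGNGGGCG or CGCCCNCGC lay in 10 of the 35 promoters against 4.63% of all. The AP-1 site TGANTCA lay in 3 against 6.85%, and the full cyclic AMP element TGACGTCA in 2, Btg2 and Dusp1, against 1.60%. That full element holds both forms of the core. A match to the NF-kappaB site lay in 11 of the 35, among them all 3 of the NF-kappaB feedback genes with a promoter, against 7.03% of all. A match describes these letters and does not show that a factor was bound.

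Together the 42 genes took 2.49, 2.44, 3.32 and 2.74% of all UMIs. The share was largest in the basophil- or mast-like class, at 7.04, 7.53, 7.15 and 7.21%, and among the named classes it differed most between libraries in the neutrophil-like class, at 2.08, 2.12, 5.26 and 3.61%. The class with the highest CPM was the same in all 4 libraries for 17 of the 42 genes. It was the basophil- or mast-like class for 11 of them (Fos, Fosb, Jun, Junb, Egr1, Ier2, Ier3, Zfp36, Dusp5, Klf6 and Dnajb1), the hepatocyte-like class for the mitochondrial chaperones Hspd1 and Hspe1, NK-like for Nr4a2, neutrophil-like for Fosl2, and for Egr3 and Rel a cluster of low UMI count that was left unnamed. That cluster, with a median of 744 UMIs per cell, scored best on B cell markers. All 8 of these were detected, but none was among its leading genes. Fos in the basophil- or mast-like class was at 6383, 7445, 7416 and 8221 CPM. In the hepatocyte-like class Fos was at 291, 258, 349.6 and 469 CPM, its lowest level of any class in all 4 libraries. Basophil and mast cell markers took 0.834, 1.18, 0.430 and 0.485% of UMIs in that class.

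**Figure D1:**
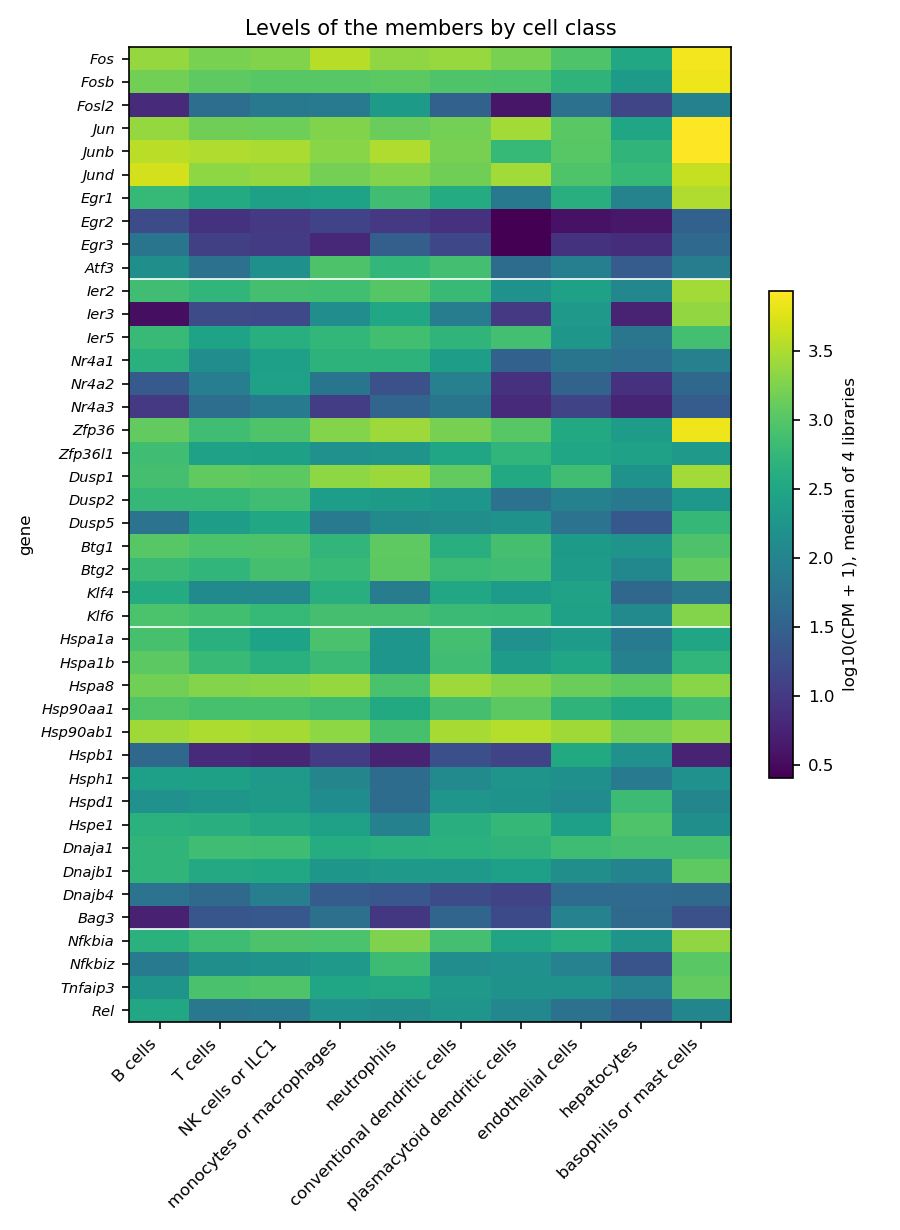
Level of each of the 42 genes (rows, by group) in 10 cell classes (columns), as the base 10 logarithm of CPM plus 1, each cell being the median of the 4 libraries. The basophil- or mast-like column holds the highest Fos, Fosb, Jun and Junb, and the hepatocyte-like column the lowest Fos and the highest Hspd1 and Hspe1.

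Over the 9 classes with at least 50 cells in every library, heat shock genes held most of the calls between diets. Among 371 pairs of class and gene that could be compared at 12 weeks, 36 were higher in MASH, of which 29 were heat shock genes, and 3 were lower. Over all genes 3.48% were higher and 2.69% lower. At 24 weeks the balance was the other way: 8 of 370 pairs were higher in MASH, against 5.15% of all genes, and 32 were lower, against 2.74%, of which 20 were heat shock genes. The 24-week counts depend on the hashtags: with chow hashtags 1 to 4 alone 15 pairs were higher and 7 lower, and with chow hashtags 5 to 8 alone 14 were higher and 55 lower. Between weeks more pairs differed. In chow 76 of 370 were higher at 24 weeks and 28 lower, against 4.25% and 4.01% of all genes. In MASH 51 of 370 were higher and 63 lower, against 5.09% and 3.46%. Of the chow pairs 40 of the 76 higher were heat shock genes and none of the 28 lower ones was. In MASH heat shock genes gave 25 higher and 26 lower pairs. Hspa1a and Hspa1b were among the higher ones and Dnaja1 and Hspd1 among the lower ones.

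**Figure D2:**
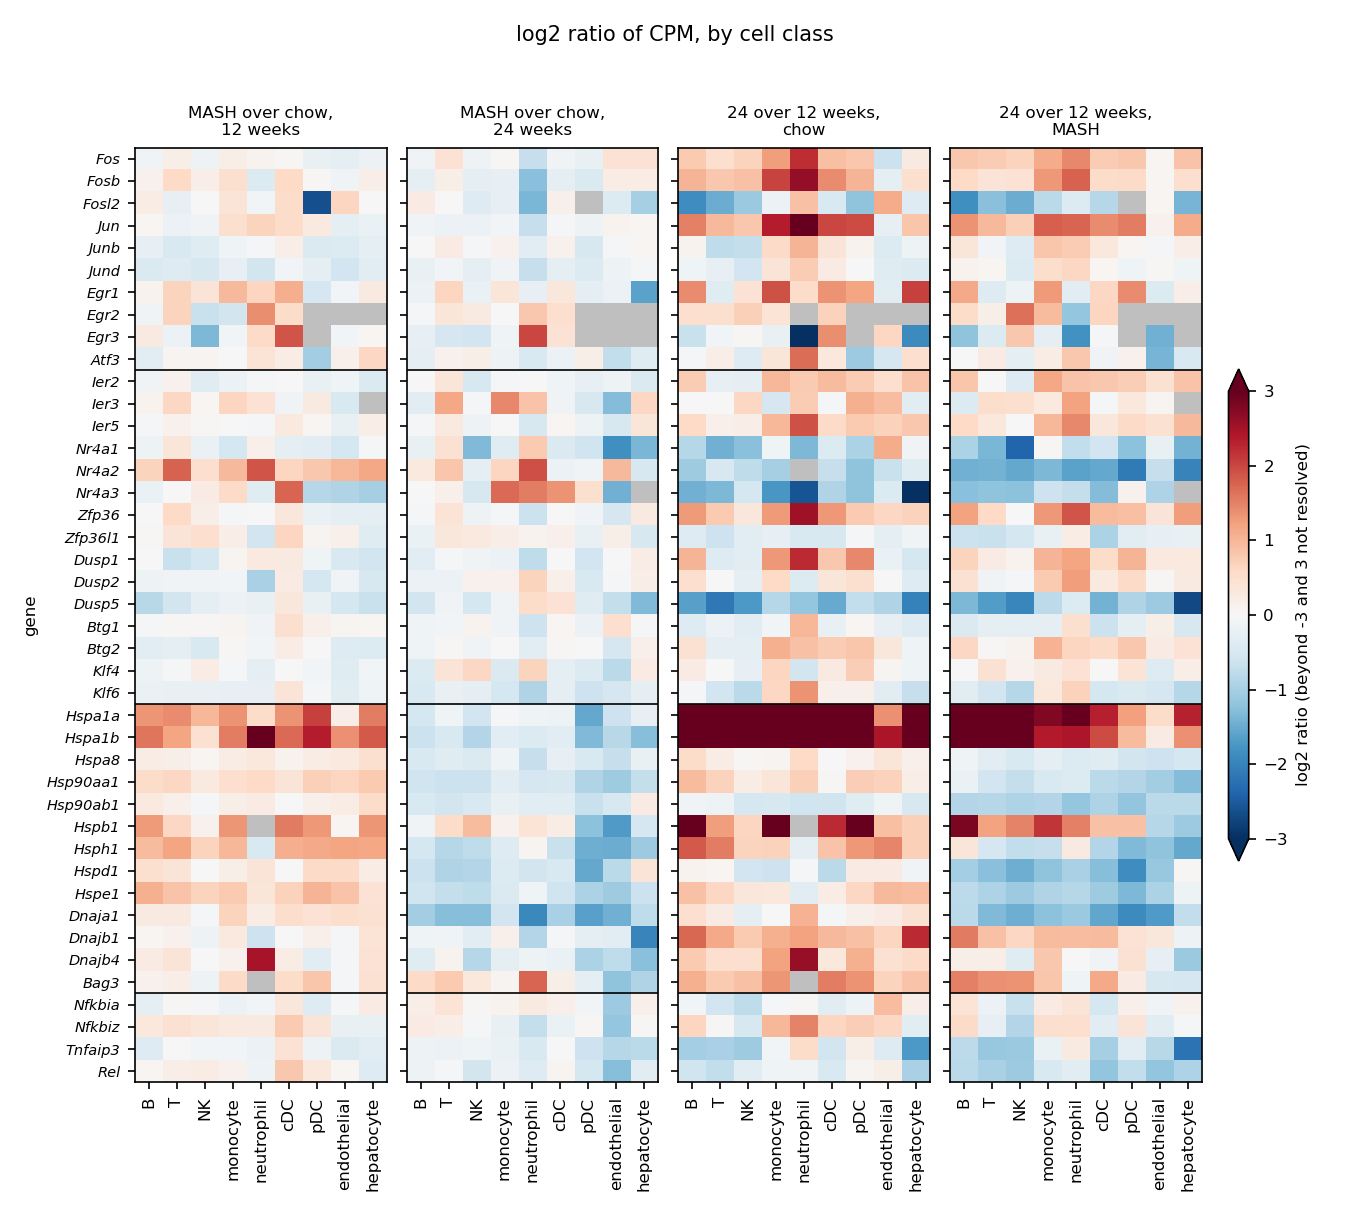
Log2 ratio of CPM for each of the 42 genes (rows) in 9 cell classes (columns), in 4 panels for MASH over chow at 12 and 24 weeks and 24 over 12 weeks in chow and MASH. Colours run from -3 to 3, and pairs with fewer than 20 UMIs are blank. The rows of Hspa1a and Hspa1b are the darkest in both panels by week, and the heat shock rows turn from mostly higher to mostly lower in MASH between 12 and 24 weeks.

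Hspa1a and Hspa1b, which encode the stress-inducible HSP70 that refolds damaged proteins, showed the widest range of all members. In the B-like class Hspa1a was at 33.6, 84.1, 2225 and 1546 CPM. Both 24-week libraries lay far above both 12-week libraries, and within each week the diets were closer together. The ratio of 24 to 12 weeks was 66.2 (58.2 to 75.6) in chow and 18.4 (17.1 to 19.8) in MASH. In the T-like class Hspa1a was at 25.2, 67.8, 898 and 826 CPM, in the NK-like class at 16.7, 33.4, 788 and 527 CPM and in the monocyte-like class at 84.6, 215, 1541 and 1468 CPM, with the same order of weeks. In the endothelial-like class it was at 152, 175, 395 and 257 CPM, where the 24-week MASH library differed little from the 12-week MASH library. Over the 9 classes the median ratio of 24 to 12 weeks was 18.2 in chow (range 2.59 to 66.2, at least 2-fold in 9 of 9) and 6.84 in MASH (1.47 to 18.4, at least 2-fold in 8 of 9). With MASH hashtags 1 to 4 alone the pDC-like ratio in MASH was 0.656 in place of 2.34, and endothelial-like Hspa1a was at 115 CPM in those hashtags, below the 12-week MASH library. Hspa1b gave medians of 22.7 in chow (5.48 to 101) and 5.17 in MASH. The 2 genes together took 0.0124, 0.0267, 0.298 and 0.183% of all UMIs.

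A larger share of cells held this RNA at 24 weeks. With every B-like cell thinned to 1000 UMIs, the share of cells with Hspa1a or Hspa1b was 6.33, 14.4, 70.5 and 56.1%, leaving out 284, 77, 570 and 127 shallower cells (without thinning, 9.01, 23.7, 74.8 and 62.2% at medians of 1650, 2459.5, 1808 and 2508 UMIs per cell). At equal depth the T-like share was 5.98, 12.2, 59.1 and 51.8%, the monocyte-like share 13.4, 23.2, 69.8 and 62.3% and the hepatocyte-like share 3.20, 7.66, 23.8 and 10.2%. Hepatocyte-like and neutrophil-like cells (2.25, 8.19, 24.8 and 14.4%) had the smallest shares of the 10 classes in both 24-week libraries. No cell type is known to lack these genes, so no class gives a background for free RNA. Hepatocyte marker genes took 0.0134, 0.0104, 0.0307 and 0.0142% of UMIs in the B-like class and 2.95, 5.05, 5.13 and 4.86% in the hepatocyte-like class, and the part of free RNA in the heat shock values was not tested.

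**Figure D3:**
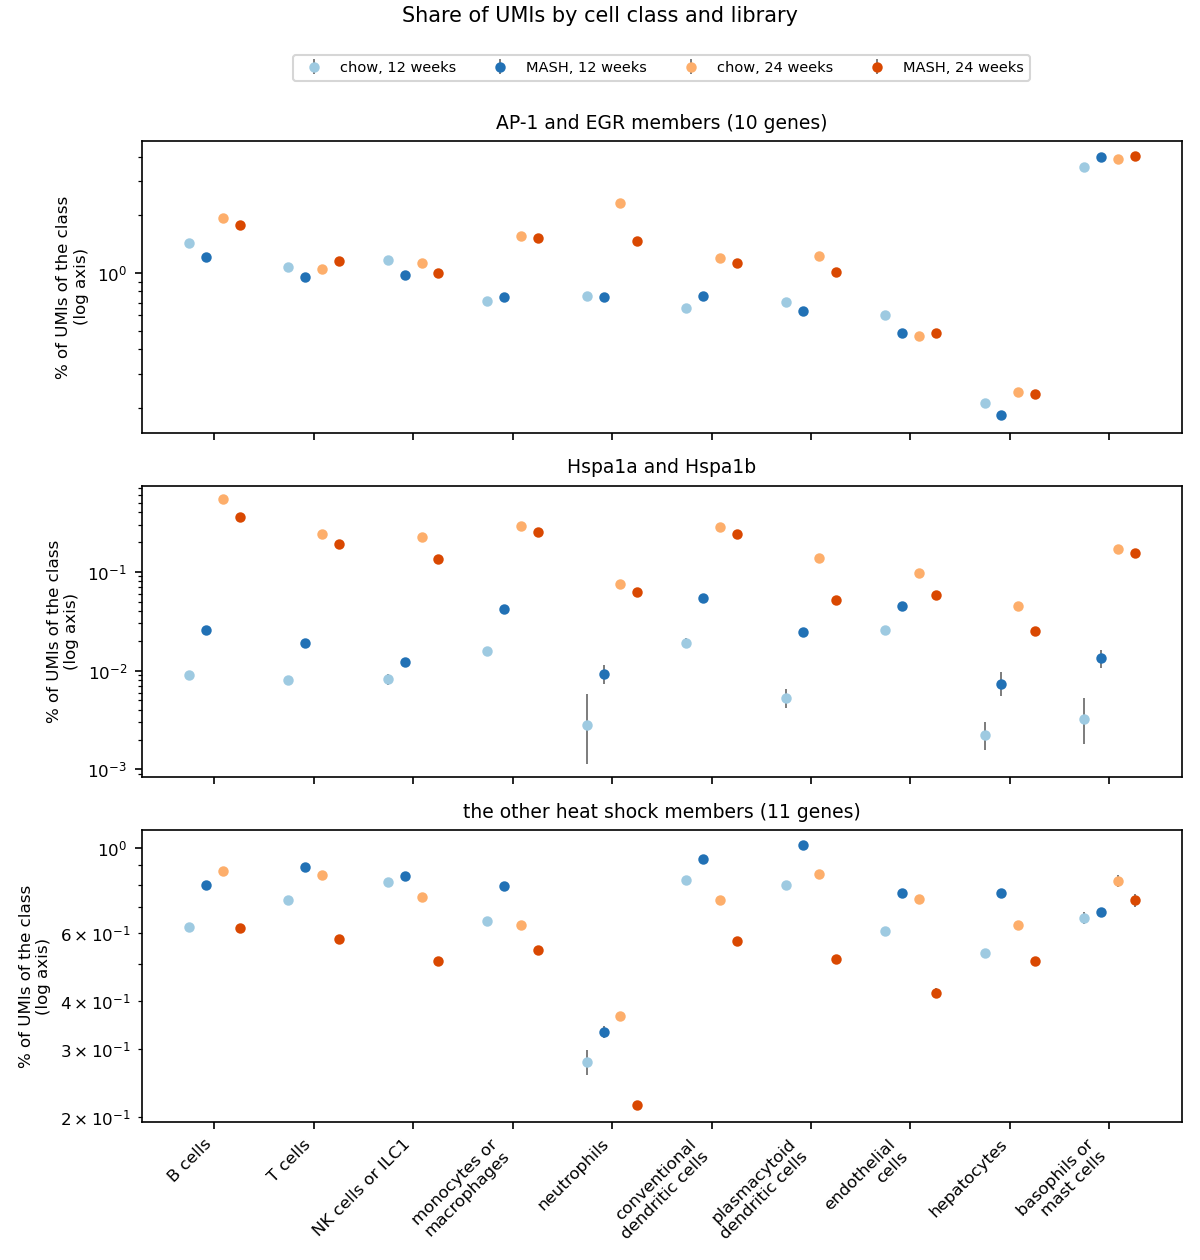
Share of a class's UMIs (log axis, %) taken by 10 AP-1 and EGR genes, by Hspa1a and Hspa1b, and by the other 11 heat shock genes, in each cell class and each of the 4 libraries (colours), with 95% Poisson intervals for counting error. Hspa1a and Hspa1b separate the 24-week from the 12-week libraries in nearly all classes, while the other heat shock genes take 0.525 to 0.809% of all UMIs with no such split.

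By whole libraries the diets differed in the opposite sense at the 2 weeks, but the sense at 24 weeks depends on the hashtags. At 12 weeks Hspa1a was higher in MASH with a median ratio of 2.54 over 9 classes (at least 2-fold in 7) and Hspa1b with 3.05 (in 8). The highest Hspa1a ratio was that of the pDC-like class at 4.16 (2.96 to 6.0) and the lowest that of the endothelial-like class at 1.15 (1.00 to 1.31). At 24 weeks the medians were 0.845 and 0.637, and in the pDC-like class Hspa1a was lower at 0.346 (0.313 to 0.382). The NK-like Hspa1a ratio of 2.0 at 12 weeks was 0.886 within 1 NK-like cluster taken alone and 3.56 within another, comparisons chosen after seeing the data because different clusters make up that class in the libraries. Within the largest T-like cluster the ratio was 2.78, beside 2.69 for the class.

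Single hashtags put bounds on these diet ratios. In the B-like class at 12 weeks Hspa1a was at 13.7, 73.9 and 25.6 CPM in the 3 chow hashtags and at 40.4, 145 and 87.3 CPM in the 3 MASH hashtags. The hashtags of the diets overlapped, although the library ratio was 2.50. At 24 weeks the chow hashtags 1 to 4 held 2584 to 2797 CPM and hashtags 5 to 8 1325 to 1777 CPM. The MASH hashtags 1 to 4 held 538 to 874 CPM and hashtags 5 to 8 2352 to 2735 CPM. The B-like MASH over chow ratio at 24 weeks was 0.251 between hashtags 1 to 4 of both libraries and 1.66 between hashtags 5 to 8, so its direction depends on the set. Between hashtags 5 to 8 of both libraries Hspa1a was also above 1 in the T-like (1.40), NK-like (1.11), monocyte-like (2.30), cDC-like (1.63) and endothelial-like (1.13) classes. In the B-like class all 8 hashtags of either 24-week library lay above all 12-week hashtags.

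Other heat shock genes were higher in 12-week MASH too. At 12 weeks Hsph1, the nucleotide exchange factor of HSP70, was at least 2-fold higher in MASH in 6 of 9 classes, with a median ratio of 2.11. Hspe1, the lid of the mitochondrial HSP60 barrel, had a median of 1.71 and was 2-fold higher in the B-like and pDC-like classes. Hsp90aa1, the inducible HSP90, had a median of 1.52 and was above 1 in 9 of 9. By hashtag, T-like Hsp90aa1 overlapped, at 557 to 716 CPM in 12-week chow and 800, 1314 and 696 CPM in MASH hashtags 4, 5 and 6. NK-like Hsph1 overlapped too, at 115 to 196 CPM in chow and 195, 397 and 144 CPM in MASH. T-like Hsph1 did not, at 100 to 177 CPM in chow and 224, 469 and 198 CPM in MASH. Hashtag 5 was the highest in each. Hspb1, a small heat shock protein that holds unfolded proteins, was 2-fold higher in 5 classes. In the B-like class it was at 3.90, 9.50, 72.5 and 67.7 CPM, with both 12-week libraries far below both 24-week ones. In the pDC-like class Hsph1 was at 104, 230.1, 255 and 92.3 CPM, with the 24-week chow library the highest. The 13 heat shock genes had a median log2 ratio of 0.47 in the B-like class, where the median over all genes was -0.07.

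At 24 weeks Dnaja1 was the heat shock gene at least 2-fold apart between diets in the most classes. It encodes an HSP40, which hands unfolded proteins to HSP70. It was at 463, 557, 658 and 317 CPM in the B-like class, 652, 789.8, 768 and 317 in the T-like class, 767, 733, 640.3 and 264 in the NK-like class and 632, 905, 747 and 277 in the endothelial-like class. The 24-week MASH library was the lowest of the 4 in each of the 9 classes. The ratio of MASH to chow was 0.482 (0.465 to 0.499) in the B-like and 0.413 (0.398 to 0.428) in the T-like class, with a median of 0.413 over 9 classes (0.264 to 0.668) and at least 2-fold lower in 6. Either MASH hashtag set was below either chow set in all 9 classes, though in the hepatocyte-like class the ratio was as close to 1 as 0.979. In MASH it was also lower at 24 than at 12 weeks, with a median of 0.401 and 2-fold in 7 of 9. In the B-like class the 8 chow hashtags ran from 546 to 847 CPM and the 8 MASH hashtags from 218 to 451 CPM. In the T-like class they ran from 438 to 1089 and 257 to 382 CPM. The diets did not overlap by hashtag in either class, unlike Hspa1a. Within the largest T-like cluster the ratio was 0.338, and within 2 NK-like clusters it was 0.434 and 0.391.

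Other chaperones that serve unstressed cells were also lower at 24 weeks in MASH. Hspd1, the HSP60 of mitochondria, had a median 24 to 12 week ratio of 0.432 in MASH and was at least 2-fold lower in 7 of 9 classes. In the T-like class it was at 183, 240.2, 190.4 and 101 CPM. Hsp90ab1, the constitutive HSP90, was below 1 in 9 of 9 classes in both diets, with medians of 0.715 in chow and 0.545 in MASH. In the T-like class its direction in chow depended on the hashtags. The 24-week chow hashtags 5 to 8 were at 3805 to 3973 CPM, above the 12-week chow hashtags at 3132 to 3733 CPM. The 24-week chow hashtags 1 to 4 were below them, at 1989 to 2100 CPM. Hspa8, the constitutive HSP70, was at 1381, 1606, 2029 and 1468 CPM in the B-like class. Dnajb1, an HSP40 that HSF1 induces, had the direction of Hspa1a instead: in chow it was higher at 24 weeks with a median of 2.09, at least 2-fold in 5 of 9 classes. Hspb1 was at least 2-fold higher at 24 weeks in 5 classes in either diet, with medians of 3.36 in chow and 2.29 in MASH. Bag3, an exchange factor of HSP70, had medians of 1.97 and 1.78, and Dnajb4, another HSP40, of 1.49 and 0.989. Without Hspa1a and Hspa1b, the heat shock genes took 0.682, 0.809, 0.782 and 0.525% of all UMIs, against 0.0124, 0.0267, 0.298 and 0.183% for that pair.

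Single classes held more calls at 24 weeks than others. In the endothelial-like class 12 of 40 genes were lower in MASH, against 3.87% of all genes. They were Dnaja1, Hsp90aa1, Hspb1, Hsph1, Hspe1, Bag3, Ier3, Nr4a1, Nr4a3, Nfkbia, Nfkbiz and Rel. All 12 were higher in hashtags 5 to 8 than in hashtags 1 to 4 of the chow library. Endothelial-like Nr4a1 was at 20.7 and 234 CPM in hashtags 1 to 4 and 5 to 8 of chow, and at 24.7 and 47.4 CPM in those of MASH. With chow hashtags 1 to 4 alone (74 cells) Nr4a1, Hsph1, Nfkbia and Nfkbiz turned to ratios above 1. In the pDC-like class 6 of 39 genes were lower against 2.84%: Hspa1a, Hspa1b, Hspb1, Hsph1, Hspd1 and Dnaja1. With chow hashtags 1 to 4 alone Hspb1 turned to 3.71 and Hsph1 to 1.03, and of the 6 only Hspa1a stayed 2-fold lower. Over the same chow hashtags, pDC-like Hspa1a was at 0.133 in MASH hashtags 1 to 4 but at 0.745 in MASH hashtags 5 to 8. pDC-like Hspb1 was at 4.35 and 74.6 CPM in the 2 sets of chow hashtags, with 74 UMIs over both. Hashtag 8, which belongs to the second set, was at only 10.9 CPM, so that set was itself uneven. In the hepatocyte-like class 7 of 39 were lower against 3.25%: Hspa1b, Hsph1, Dnajb1, Dnajb4, Egr1, Nr4a1 and Dusp5. With chow hashtags 1 to 4 alone Nr4a1 was the only one of the 7 that stayed 2-fold lower. That setting did not split the MASH library by hashtag. With MASH hashtags 1 to 4 and 5 to 8 each set over chow hashtags 1 to 4, Hspa1b was at 0.289 and 0.166. Nr4a1 was at 0.560 and 0.0963 in the same ratios. The hepatocyte-like median log2 ratio was 0.19 over the 9045 genes compared and 0.15 over those with at least 100 UMIs. In the cDC-like class 7 of 42 were higher in MASH at 12 weeks against 5.02%: Hspa1a, Hspa1b, Hspb1, Hsph1, Egr1, Egr3 and Nr4a3. A cluster led by Fscn1, Ccl22 and Cacnb3 made up 9.36, 32.1, 5.28 and 16.3% of the cDC-like cells, so the class was made up differently in the diets, and the part of that makeup in its values was not tested.

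AP-1 is the dimer of Fos and Jun proteins, and the 10 AP-1 and EGR genes differed by week more than by diet. They took 1.42, 1.21, 1.93 and 1.76% of UMIs in the B-like class, 0.711, 0.751, 1.54 and 1.51% in the monocyte-like class and 0.761, 0.748, 2.29 and 1.46% in the neutrophil-like class. Both 24-week libraries were above both 12-week libraries in each. In the hepatocyte-like class the share was 0.210, 0.183, 0.240 and 0.234%. The basophil- or mast-like class was at 3.54, 4.0, 3.86 and 4.05%, with no such gap. Of the pairs of class and gene, 21 of 85 were higher at 24 weeks in chow and 7 lower, against 4.25% and 4.01% of all genes, and 14 of 84 were higher in MASH and 9 lower, against 5.09% and 3.46%. By diet the counts were 3 higher and 3 lower of 86 at 12 weeks, near the 3.48% and 2.69% of all genes, and 1 higher and 3 lower of 83 at 24 weeks, where all genes gave 5.15% and 2.74%.

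In the neutrophil-like class 15 of 38 genes were higher at 24 than at 12 weeks in chow, against 11.1% of all genes. In the monocyte-like class it was 14 of 42 against 3.57% and in the B-like class 11 of 42 against 4.58%. Monocyte-like Fos was at 2014, 2271, 4814 and 4916 CPM and Jun at 602, 838, 3074 and 2901 CPM. Neutrophil-like Fos was at 1145, 1223, 5332 and 3302 CPM, with a ratio of 4.66 (4.14 to 5.25) in chow and 2.70 (2.53 to 2.88) in MASH. Only 154 cells made up the 12-week chow neutrophil-like class. Neutrophil markers took 14.5, 15.2, 15.6 and 15% of UMIs there, much alike in all 4 libraries. A cluster led by Camp, Ngp and Ltf made up 20.1, 19.9, 3.41 and 15.9% of the class, least in the 24-week chow library, where Fos was highest, and the part of that makeup was not tested. In the B-like class Fos ran from 1569 to 2216 CPM over the 12-week chow hashtags, 1662 to 1710 CPM over the MASH ones, and 3033 to 3250 and 2744 to 3198 CPM over the 24-week chow and MASH hashtags. The hashtags of the 2 weeks did not overlap.

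The direction by week depended on the class. Egr1, a zinc finger factor induced by growth factors and receptor signals, was at 342, 369, 919 and 808 CPM in the B-like class and 98.9, 195, 369.8 and 472 CPM in the monocyte-like class, with the 24-week libraries highest. In the T-like class it was at 331, 526, 259 and 405 CPM, where both MASH libraries were above both chow libraries and 24 weeks was below 12 weeks in either diet. By hashtag both the diets and the weeks overlapped there. The T-like chow and MASH hashtags ran from 210 to 494 and 369 to 646 CPM at 12 weeks. At 24 weeks they ran from 176 to 344 and 317 to 515 CPM. The median Egr1 ratio of 24 to 12 weeks was 2.27 in chow (0.783 to 4.16) and 1.15 in MASH (0.748 to 2.67). Jun had medians of 2.83 and 2.56 and was at least 2-fold higher in 5 classes in chow and 6 in MASH. Fosb had medians of 2.02 and 1.46. Junb, at medians of 1.08 and 1.15, and Atf3, a stress-induced factor, at 1.14 and 0.985, stayed nearer to 1. Fosl2 was lower at 24 weeks in most classes, with medians of 0.734 and 0.483. Egr2 could be compared in 5 or 6 classes and Egr3 in 6 to 8, since few of their UMIs were seen.

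Hashtag sets also differed in Jun. T-like Jun was at 1084, 962, 2141 and 1903 CPM, with 1432 to 1602 CPM over hashtags 1 to 4 and 2500 to 3022 CPM over hashtags 5 to 8 of the 24-week chow library. Jund, a Jun family member present in resting cells, was below 1 in MASH over chow in 9 of 9 classes at both weeks, with medians of 0.763 and 0.863. Klf6, a zinc finger factor, was below 1 in 9 of 9 at 24 weeks with a median of 0.725. None of these ratios reached 2-fold in any class. The 24-week direction depended on the hashtags in some classes. MASH over chow Jund between hashtags 1 to 4 was 1.07 in the T-like and 0.736 in the endothelial-like class. Between hashtags 5 to 8 it was 0.878 and 1.19. T-like Klf6 was 1.14 between MASH hashtags 5 to 8 and chow hashtags 1 to 4, and 0.793 between hashtags 5 to 8 of both libraries.

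**Figure D4:**
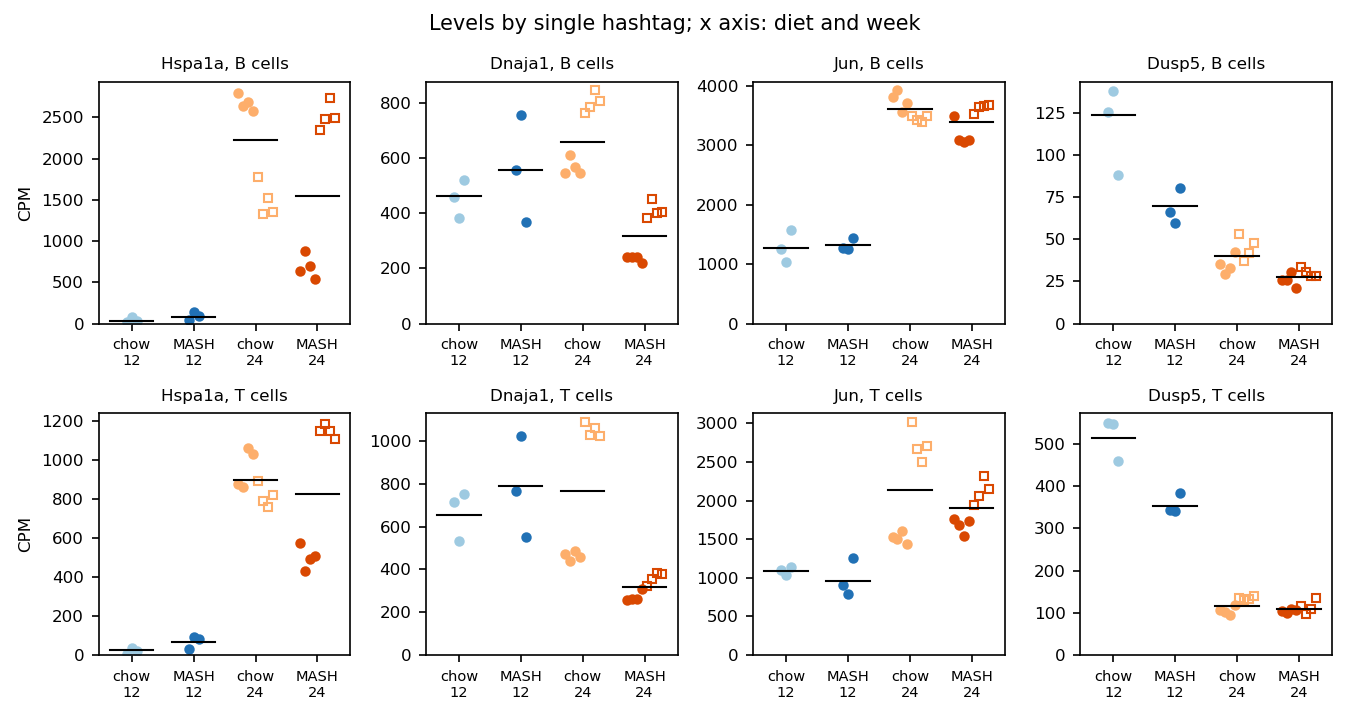
CPM of Hspa1a, Dnaja1, Jun and Dusp5 by single hashtag in the B-like (top) and T-like (bottom) class in the 4 libraries. Filled circles are hashtags 1 to 4 (1 to 3 and 4 to 6 at 12 weeks), open squares hashtags 5 to 8 of the 24-week libraries, and the black line is the CPM of the whole class; Dnaja1 of 24-week MASH lies below 24-week chow with no overlap, while Hspa1a of the diets interleaves.

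Among the other early response genes the Nr4a receptors and Dusp5 were lower at 24 weeks in most classes. Dusp5, a nuclear phosphatase that acts on ERK, was at 515, 352, 117 and 109 CPM in the T-like class, 124, 70.1, 40.1 and 27.4 in the B-like class and 594, 485, 181 and 124 in the NK-like class. Both 24-week libraries lay below both 12-week libraries. The T-like ratio of 24 to 12 weeks was 0.228 (0.215 to 0.240) in chow and 0.311 (0.292 to 0.330) in MASH, and within the largest T-like cluster it was 0.225 and 0.267. Dusp5 was below 1 in 9 of 9 classes in both diets. T-like hashtags ran from 459 to 551 and 342 to 385 CPM at 12 weeks and from 95.4 to 141 and 96.2 to 134 CPM at 24 weeks, with no overlap of weeks. At 1000 UMIs per cell Dusp5 was seen in 35.8, 27.3, 10.5 and 10.1% of T-like cells.

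Nr4a1 and Nr4a3, which are induced by antigen receptor signals in lymphocytes, and Nr4a2 of the same family had medians below 1 between weeks. Endothelial-like Nr4a1 in chow went the other way, higher at 24 weeks at 2.15 (0.299 with chow hashtags 1 to 4 alone). Nr4a1 had a median 24 to 12 week ratio of 0.551 in chow and 0.521 in MASH, Nr4a3 of 0.396 and 0.476, and Nr4a2 of 0.602 and 0.346. Nr4a2 was at least 2-fold lower in MASH in 8 of 9 classes and Nr4a3 in chow in 6. The diets parted Nr4a2 at 12 weeks. In the T-like class it was at 72.2, 247, 51.7 and 92 CPM, so that 12-week MASH was the highest library, and the ratio of MASH to chow was 3.42 (3.14 to 3.72) for the class and 3.48 within its largest cluster. The ratio was above 1 in 9 of 9 classes with a median of 1.97, although the hepatocyte-like ratio of 2.23 turned to 0.325 with single-hashtag cells. In the NK-like class Nr4a2 was at 329, 466, 193 and 160.2 CPM, with a smaller ratio of 1.41. Nr4a3 was higher in MASH in the cDC-like class at both weeks, at 3.35 (2.68 to 4.23) and 2.54 (2.01 to 3.24), from 49.4, 165, 26.6 and 67.5 CPM, in a class whose clusters took different shares in the 2 diets, as given above. NK-like Nr4a1 was lower in MASH at 24 weeks at 0.398, but at 0.619 and 0.558 within 2 single clusters, short of 2-fold.

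**Figure D5:**
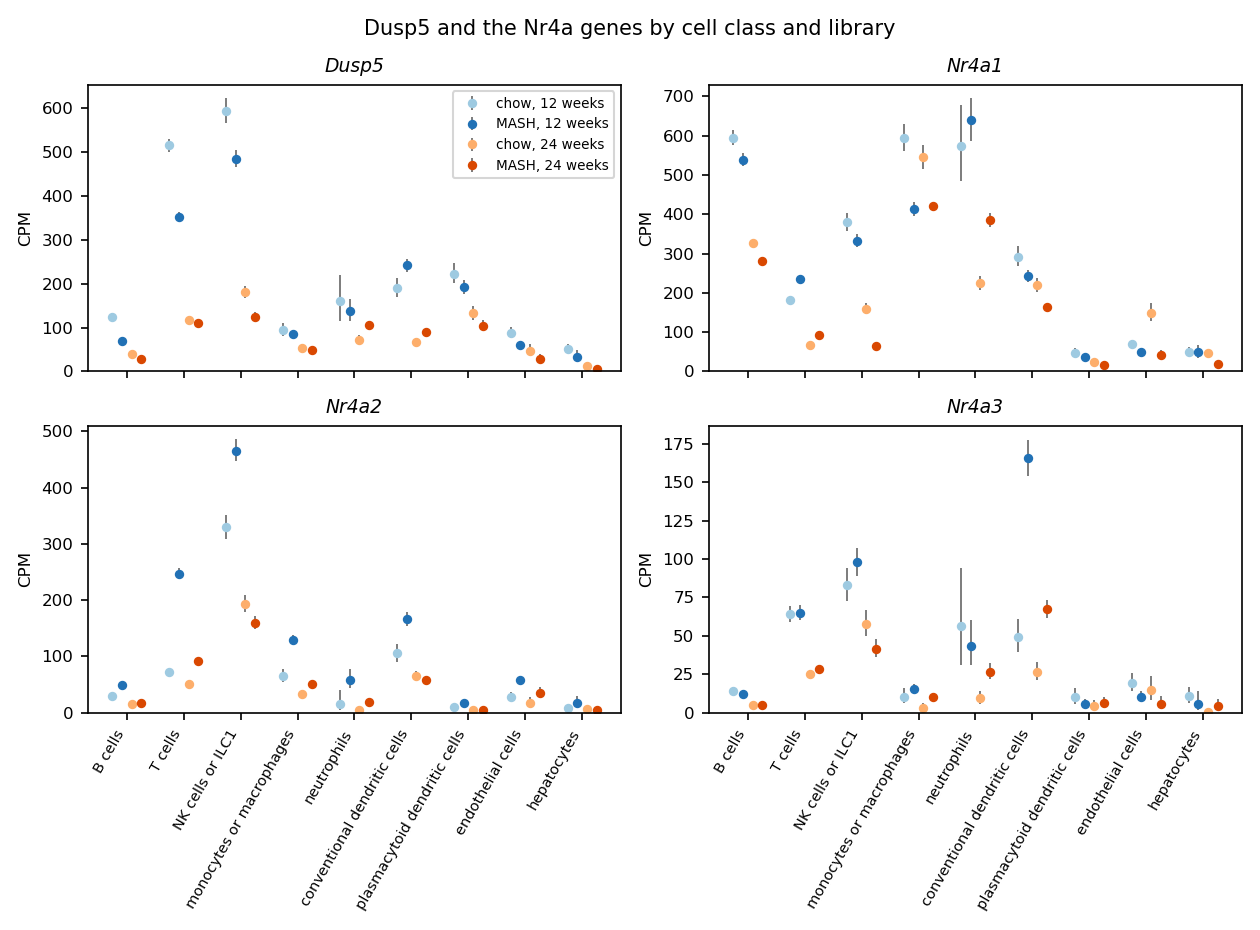
CPM of Dusp5, Nr4a1, Nr4a2 and Nr4a3 in 9 cell classes and 4 libraries, with 95% intervals for counting error. The NK-like and T-like classes hold the most Dusp5 at 12 weeks in both diets, and T-like Nr4a2 is higher in 12-week MASH than in the other 3 libraries.

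The remaining early genes fell into 2 kinds by week. Dusp1, a phosphatase that acts on p38 and JNK, was at 1274, 1561, 5963 and 3545 CPM in the neutrophil-like and 1354, 1427, 3313 and 2912 CPM in the monocyte-like class, highest at 24 weeks, but at 1549.5, 972, 1188 and 1149 CPM in the T-like class, where 12-week chow was highest. Ier2 was at 489, 433, 978 and 962 CPM in the monocyte-like class, again highest at 24 weeks, and at 963, 748, 805 and 573 CPM in the NK-like class, where it was not. Ier5, which acts on HSF1, had medians of 24 to 12 weeks of 1.62 in chow and 1.49 in MASH, and Btg2, an antiproliferative gene, of 1.37 and 1.49. The other kind differed little. Btg1, which holds lymphocytes quiescent, had medians of 0.856 and 0.833, Dusp2 of 0.996 and 1.22, and Klf4 of 1.05 and 1.15. Zfp36l1, a relative of Zfp36, had medians of 0.808 and 0.791.

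Calls by diet among early genes lay in few classes. Ier3, an early gene linked to cell survival, was higher in MASH at 24 weeks in the T-like class at 2.22 (1.85 to 2.69) and the monocyte-like class at 2.72 (2.33 to 3.19), and T-like Ier3 hashtags of the diets overlapped. Monocyte-like Nr4a3 was higher at 3.26 (1.53 to 8.27). In the neutrophil-like class Egr3 (4.0), Nr4a2 (3.85), Nr4a3 (2.88) and Bag3 (3.33) were higher in MASH at 24 weeks, and Fosb (0.418) and Fosl2 (0.386) lower. The higher ones rest on few chow UMIs: 6 for Egr3, 15 for Nr4a3 and 4 for Bag3 over the hashtag sets. Over chow hashtags 1 to 4 (143 cells), MASH hashtags 1 to 4 and 5 to 8 gave 0.935 and 0.726 for Egr3. For Nr4a2 they gave 0.561 and 0.484. Over chow hashtags 5 to 8 Egr3 gave 7.09 and 5.51. At 12 weeks Egr2 and Nr4a2 were higher in MASH in the neutrophil-like class. Fosl2 (0.162) and Atf3 (0.486) of the pDC-like class and Egr3 (0.392) of the NK-like class were the 3 pairs lower in MASH at 12 weeks. Zfp36, whose protein speeds the decay of cytokine RNAs, was at 746, 749, 1799 and 1727 CPM in the B-like class, with the 24-week libraries above the 12-week ones.

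The 4 NF-kappaB genes were called mostly between weeks. Nfkbia and Nfkbiz encode IkappaB proteins, Tnfaip3 the ubiquitin editor A20, and Rel the c-Rel subunit. Of 36 pairs none was higher or lower by diet at 12 weeks, where the background was 3.48% and 2.69%, and none was higher and 3 lower at 24 weeks, all 3 of them endothelial-like, against 5.15% and 2.74%. Between weeks 6 of 36 were lower and none higher in MASH, against 3.46% and 5.09% of all genes, and 3 were lower and 1 higher in chow, against 4.01% and 4.25%. In MASH the median ratio of 24 to 12 weeks was 0.528 for Rel, below 1 in 9 of 9 classes, and 0.560 for Tnfaip3. T-like Rel was at 81.7, 93.7, 48.8 and 47.4 CPM and T-like Tnfaip3 at 1119, 1105, 566 and 503 CPM. The NK-like class had the most genes lower at 24 weeks in MASH, 10 of 42 against 2.73% of all genes. A cluster led by Gzmc, Klrb1b and Ncr1 made up 40.1% of that class in 12-week MASH and 75.2% in 24-week MASH. The part of that makeup in the count was not tested.

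Single hashtags were compared for all calls of the largest classes. The B-like and T-like classes gave 84 pairs of class and member together. At 12 weeks 8 of them were higher in MASH and 3 of these had no overlap of hashtags; over all genes 1.66% of pairs were called higher with no overlap, 378 of the 606 called. At 24 weeks 1 pair was higher, with overlap, against 0.530% of all genes (131 of 947 called). Both lower pairs, Dnaja1 in either class, had no overlap, against 0.364% (90 of 644 called). Between weeks in chow 16 pairs were higher and 14 of these had no overlap, against 1.24% (296 of 1069 called), and 7 of 9 lower pairs had none, against 0.917% (218 of 617 called). In MASH 8 of 12 higher pairs had none, against 1.41% (338 of 1248 called), and 12 of 14 lower pairs, against 1.00% (240 of 572 called). Hashtags within a library share their handling, so this describes spread only.

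Companion genes of the same pathways were read from lists outside the 42. Over all genes, the background for their counts, 3.48% of pairs were higher and 2.69% lower in MASH at 12 weeks. At 24 weeks it was 5.15% and 2.74%. Between weeks 4.25% were higher and 4.01% lower in chow, and 5.09% and 3.46% in MASH. Several companion counts lay near these shares. Of 34 other early response genes, such as Myc, Klf2 and Cd69, 6 of 261 pairs were higher and 7 lower in MASH at 12 weeks, and 15 of 268 higher and 10 lower at 24 weeks. By week they gave 19 higher and 20 lower of 260 in chow, and 17 and 16 of 270 in MASH. Of 34 other chaperones and cochaperones, 7 of 274 were higher and none lower at 12 weeks, and 4 of 282 higher and 17 lower at 24 weeks. In MASH they gave 7 higher and 46 lower of 280 between weeks, and in chow 9 and 8 of 274. The chaperones lower at 24 weeks in MASH included the HSP90 partners Stip1, Chordc1 and Ahsa2, which are named after their values were seen. T-like Stip1 was at 122, 163, 142 and 58.7 CPM and T-like Chordc1 at 148, 212, 165 and 66.3 CPM. Of 20 other NF-kappaB genes 10 of 175 were higher and 3 lower at 12 weeks, and 10 of 176 and 4 at 24 weeks, with 7 and 2 of 175 between weeks in chow and 3 and 4 of 175 in MASH.

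Few companions were called in the same class and direction at both weeks. In the hepatocyte-like class Myc, Gadd45g and Plk3 were lower in MASH at both, and hepatocyte-like Myc was at 18.7, 2.72, 31.4 and 15.1 CPM. In the neutrophil-like class Traf1 and Ikbke, in TNF receptor and NF-kappaB signalling, were higher, and in the cDC-like class Relb, a subunit of the noncanonical pathway, was at 62.5, 149.8, 40.1 and 91.8 CPM, higher in either MASH library than in chow of the same week, as was the share of the second cDC-like cluster. pDC-like Cd83 was lower in both. No companion chaperone was called at both weeks in the same class and direction.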

How the data were processed

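RNA was measured in single cells with the 10x 5' chemistry, in 1 library for each pairing of diet and week, 4 in all. The deposited matrices hold raw UMI counts per gene and cell, made with Cell Ranger 5.0.1 (12-week chow and both 24-week libraries) and Cell Ranger 4 (12-week MASH), per the file headers. Builds mm10 and GRCh38 appear in the submitters' processing notes, without the settings of each step. The 12-week MASH matrix held 737280 columns, of which 19091 had at least 500 UMIs, and its list of 19014 barcodes did not match it and was not used.

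The 42 genes and the companion lists were chosen with earlier results of these data known. The text names the genes with the largest ratios among those called, and at most 3 companions per list and direction called at both weeks. Cells needed 500 gene UMIs, 300 genes and at most 15% mitochondrial UMIs, which left 18436, 17225, 27291 and 19953 cells. Scrublet's automatic threshold set the doublets where it gave 0.5 to 25% of cells, otherwise 0.8% per 1000 cells. That removed 8.83, 9.73, 21.9 and 11.0%, and 17.9, 24.4, 14.0 and 19.3% of the cells kept still carried more than 1 hashtag. Clustering used scanpy 1.11.5 (2000 variable genes, 30 principal components, 15 neighbours, Leiden resolution 1), and clusters were named from 16 marker lists. The NK-like class has another main cluster in 24-week MASH than in the other libraries, and clusters take different shares of the T-like, cDC-like and neutrophil-like classes across libraries. UMIs were summed per class and library. Each ratio has an exact conditional binomial 95% interval (scipy 1.17.1), and the steps were tested on simulated data. The alternatives were other scaling, doublet and cell filters, fold, minimum UMIs, equal weight of cells, hashtag choice and clustering resolution. The hashtag splits by week and of 24-week MASH and the single-cluster ratios were chosen after seeing the data. Classes under 50 cells in a library and clusters that were left unnamed or had mixed markers were not compared.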

Additional observations from a re-analysis of the deposited data

Results flagged for a closer look

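In 5 heat shock genes the MASH over chow ratio was above 1 in all 9 classes at 12 weeks and below 1 in all 9 at 24 weeks. The medians over the classes were 2.54 and 0.845 for Hspa1a, 3.05 and 0.637 for Hspa1b, and 1.17 and 0.739 for Hspa8, the constitutive HSP70. For Hsp90aa1 they were 1.52 and 0.639, and for Hspe1 1.71 and 0.638. At 12 weeks T-like Hsp90aa1 overlapped by hashtag, at 557 to 716 CPM in chow and 800, 1314 and 696 CPM in MASH. The 24-week direction depends on the hashtags. Between hashtags 5 to 8 of both libraries Hspa1a was at 1.66, 1.40, 1.11, 2.30, 1.63 and 1.13 in the B-, T-, NK-, monocyte-, cDC- and endothelial-like classes, and monocyte-like Hspa1b at 2.08. Between MASH hashtags 5 to 8 and chow hashtags 1 to 4 Hspa8 was above 1 in all 9 classes (1.02 to 1.28), and monocyte-like Hsp90aa1 and Hspe1 were at 1.25 and 1.16. The classes of a library share its handling and are not replicates. The difference between weeks was not tested, since each ratio compares 1 library with 1 other.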

How the results depend on the processing

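No paired analysis was possible because each group is 1 library. Of the pairs of class and gene called in the 4 comparisons, 296 of 297 stayed at least 2-fold with the median of gene ratios as scale, 292 of 297 with the stricter cell filter, 277 of 297 with cells weighed equally, 272 of 292 with single-hashtag cells and 243 of 297 without doublet removal. With chow hashtags 1 to 4 alone 93 of 143 calls that use 24-week chow stayed 2-fold and 10 turned direction, and of the 24-week diet calls 10 of 39 stayed; with chow hashtags 5 to 8 it was 130 of 143. With MASH hashtags 1 to 4 or 5 to 8 it was 126 of 154 each. The count higher in MASH at 12 weeks was 36, and 71 at 1.5-fold. The count lower was 3, and 12 at 1.5-fold, 0 without doublet removal, 1 with at least 100 UMIs, 5 with cells weighed equally and 8 with single-hashtag cells. At 24 weeks the 8 higher became 21 at 1.5-fold, 5 with at least 100 UMIs, 15 and 14 with chow hashtags 1 to 4 and 5 to 8, and 14 with MASH hashtags 5 to 8. The 32 lower became 81 at 1.5-fold, 7 and 55 with chow hashtags 1 to 4 and 5 to 8, and 76 and 49 with MASH hashtags 1 to 4 and 5 to 8. Between weeks in MASH the counts of 51 higher and 63 lower became 32 and 106 with MASH hashtags 1 to 4. The cause of these changes was not tested beyond the fewer cells each setting uses.

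Single ratios turned to the other side of 1 in 17 instances. Of MASH over chow, hepatocyte-like Nr4a2 at 12 weeks was 0.325 with single-hashtag cells. At 24 weeks with chow hashtags 1 to 4, the pDC-like ratios were 3.71 for Hspb1 and 1.03 for Hsph1, and the endothelial-like ones 2.01 for Nr4a1, 1.17 for Hsph1, 1.19 for Nfkbia and 1.02 for Nfkbiz. Of 24 over 12 weeks in chow, pDC-like Fosl2 was 1.02 without doublet removal. With chow hashtags 1 to 4, pDC-like Hsph1 was 0.863 and endothelial-like Fosl2, Nr4a1 and Hsph1 were 0.480, 0.299 and 0.843. Of 24 over 12 weeks in MASH, hashtags 1 to 4 gave 0.690 for monocyte-like Hspb1 and 0.656 for pDC-like Hspa1a, and hashtags 5 to 8 gave 0.729 for neutrophil-like Hspb1, 0.668 for hepatocyte-like Jun and 0.837 for hepatocyte-like Hspa1b.

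Depth limits the shares of cells: without thinning, Hspa1a or Hspa1b was seen in 9.01, 23.7, 74.8 and 62.2% of B-like, 10.6, 22.3, 71.7 and 63.5% of T-like and 34.6, 52.7, 87.4 and 81.6% of monocyte-like cells. Intervals cover counting error, and 1 library per group leaves the spread between mice unknown.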
